A study of Homo sapiens with 17 samples.

Results

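The cytochrome P450 genes are a family of heme enzymes, and 55 of them were examined here among the 63187 genes of the deposited count table. Members were all genes whose symbol is CYP followed by a number, letters and a number, without CYP51A1, together with the 104 of 58372 counted ATAC-seq peaks that the authors annotated to one of them. The study grew HepG2, a line from a human hepatocellular carcinoma labelled wild type, for 4 days with 5-azacytidine at 0, 2 or 10 µM. RNA-seq covered 3 libraries at each dose. ATAC-seq, which marks open chromatin, covered 2 libraries of the 10 µM dose and 3 of each lower one. Every group shared the same line, serum-containing medium with antibiotics and daily change of medium, so 0 µM stood as the untreated control. HepG2 is 1 tumour line. The series describes the libraries of a dose as biological replicates without saying that they came from separate cultures, so p-values measure only the spread between these libraries.

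Most P450 enzymes insert oxygen into fats, steroids or drugs and draw electrons from a reductase partner. In liver, families 1 to 3 clear drugs and pollutants, family 4 oxidises fatty acids, and smaller families make bile acids, activate or degrade vitamin D and retinoic acid, or make steroid hormones. 5-Azacytidine is a cytidine analog that enters nucleic acids and traps DNA methyltransferases, and DNA methylation sits mostly on CG pairs. Methylation itself was not measured in the data used here.

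Promoters of the family carried few CG pairs. RefSeq promoter windows of 300 bases on GRCh38.p14, with 250 bases before the start and 50 after it, matched 38 of the 55 genes through 51 windows. The median was 4.5 CG pairs over the members, taking for each gene the window nearest its annotated 5′ end, against 14 over all 35116 RefSeq windows. The 250 bases before 1 start are shown for 6 genes whose RNA or promoter peaks the results turn on, 5′ to 3′ on the gene's strand, with each CG pair in capitals: CYP2W1 (chr7:982931-983180, plus strand), CYP21A2 (chr6:32038165-32038414, plus), CYP27A1 (chr2:218781897-218782146, plus), CYP19A1 (chr15:51318498-51318747, minus), CYP26B1 (chr2:72147863-72148112, minus) and CYP1A1 (chr15:74725529-74725778, minus).
CYP2W1: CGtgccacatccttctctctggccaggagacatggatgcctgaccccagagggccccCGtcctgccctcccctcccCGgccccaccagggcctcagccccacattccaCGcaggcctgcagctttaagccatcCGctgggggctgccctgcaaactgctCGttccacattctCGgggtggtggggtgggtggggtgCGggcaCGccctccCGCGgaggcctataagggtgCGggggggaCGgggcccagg
CYP21A2: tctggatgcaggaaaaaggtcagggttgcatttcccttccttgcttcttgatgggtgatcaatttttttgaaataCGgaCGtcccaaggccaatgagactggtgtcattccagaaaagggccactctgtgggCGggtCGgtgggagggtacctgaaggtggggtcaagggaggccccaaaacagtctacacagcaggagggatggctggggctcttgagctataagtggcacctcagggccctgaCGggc
CYP27A1: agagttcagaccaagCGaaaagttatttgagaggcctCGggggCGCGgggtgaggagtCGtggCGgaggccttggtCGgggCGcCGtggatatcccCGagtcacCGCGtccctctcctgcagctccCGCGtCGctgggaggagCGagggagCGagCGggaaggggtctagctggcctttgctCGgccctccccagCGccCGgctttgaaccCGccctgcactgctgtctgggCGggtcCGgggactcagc
CYP19A1: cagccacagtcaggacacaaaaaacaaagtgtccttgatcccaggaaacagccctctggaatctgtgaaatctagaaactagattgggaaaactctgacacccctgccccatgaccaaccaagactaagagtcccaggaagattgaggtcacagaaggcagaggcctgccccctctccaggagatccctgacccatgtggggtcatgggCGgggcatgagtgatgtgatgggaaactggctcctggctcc
CYP26B1: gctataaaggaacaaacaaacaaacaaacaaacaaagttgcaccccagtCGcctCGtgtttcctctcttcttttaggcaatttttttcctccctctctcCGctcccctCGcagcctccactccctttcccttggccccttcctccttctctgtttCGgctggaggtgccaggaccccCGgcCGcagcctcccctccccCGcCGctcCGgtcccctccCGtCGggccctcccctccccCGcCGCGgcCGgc
CYP1A1: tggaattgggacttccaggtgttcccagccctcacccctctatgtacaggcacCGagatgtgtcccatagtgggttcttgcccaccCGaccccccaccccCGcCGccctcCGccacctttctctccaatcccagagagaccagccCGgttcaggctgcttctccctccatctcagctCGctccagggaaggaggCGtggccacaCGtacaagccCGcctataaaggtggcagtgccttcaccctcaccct
The printed stretches held 13 CG pairs for CYP2W1, 5 for CYP21A2, 24 for CYP27A1, 1 for CYP19A1, 16 for CYP26B1 and 10 for CYP1A1. An ATAC peak overlapped each of these windows except that of CYP26B1.

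RNA libraries held between 35553052 and 46430168 counts and ATAC libraries between 2896671 and 7864321 counts in peaks. Replicate 3 at 0 and at 2 µM stood apart, with 0.271% and 0.231% of counts on mitochondrial messenger RNA against 0.0664% to 0.143% in the other RNA libraries. The 10 hepatocyte markers summed to 37232 to 62375 CPM at 0 µM, then 18013 to 30583 at 2 µM and 1389 to 2209 CPM at 10 µM, CPM being the count scaled to a common library size. On average 9 of the 10 were over 1 CPM at 10 µM, TTR being the exception at 0.332 CPM, and all 10 at 0 µM. The 6 leukocyte markers summed to 58.0 to 89.7 CPM at 10 µM, with 1 of them over 1 CPM on average, against 2335 to 3455 CPM at 0 µM, with 3 over 1 CPM, the most abundant being LYZ (2747 CPM at 0 µM, then 1340 at 2 µM and 73.4 CPM at 10 µM). The 6 cholangiocyte markers, 4 over 1 CPM at each dose, summed to 516 to 1207 CPM at 10 µM, against 1024 to 1292 CPM at 0 µM. Among these KRT19 averaged 187 CPM at 0 µM, then 533 at 2 µM and 843 CPM at 10 µM, while SPP1 averaged 726 CPM at 0 µM, then 425 at 2 µM and 20.7 CPM at 10 µM. The 6 fibroblast and stellate markers summed to 0.519 to 0.789 CPM at 10 µM, against 5.43 to 24.4 CPM at 0 µM, where PDGFRB alone was over 1 CPM. The 6 endothelial markers summed to 3.34 to 7.49 CPM at 10 µM, against 5.58 to 20.4 CPM at 0 µM, with LYVE1 the most abundant. PTPRC (leukocytes), CFTR (cholangiocytes) and STAB2 (sinusoidal endothelium) were at 0 in every library. The part of these marker differences in the P450 changes was not tested, and in bulk libraries fewer cells of a kind and less RNA per cell cannot be told apart.

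At 10 µM the family lost RNA. Against 0 µM, 17 members fell and 7 rose, 7 had no call and 24 had too few counts to be tested, by edgeR's quasi-likelihood test at an adjusted p under 0.05 over the 18999 genes tested. Over those genes 25.1% fell and 23.0% rose. Scaling to total counts instead gave 15 falls and 7 rises among members and shifted the median gene to 0.24 on the log2 scale, with 5788 genes higher and 3747 lower against 4371 and 4767. The median log2 change was -1.46 over the 31 tested members and -0.02 over all genes tested. The groups at 10 and 0 µM did not overlap in 23 of the 31 members, 22 of them called, and in 58.9% of all genes tested. At 2 µM against 0 µM, 3 members rose and none fell, against 3.22% of all genes that rose and 1.06% that fell. With a replicate block on 0 and 2 µM alone, chosen after seeing the data, 2 rose and none fell. DESeq2 also called no fall, and at an unadjusted p under 0.05 1 member, CYP1A1, was lower at 2 µM and 7 were higher. No share over all genes was taken at that unadjusted threshold, so this split carries no reading for the family. By adjusted p all genes leaned upward too, with 611 higher and 202 lower at 2 µM. Between the doses, 1 member rose and 15 fell at 10 µM against 2 µM, against 16.8% and 21.6% of all genes. The comparisons with 0 µM share the same control libraries, and their values are given side by side rather than correlated.

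**Figure D1:**
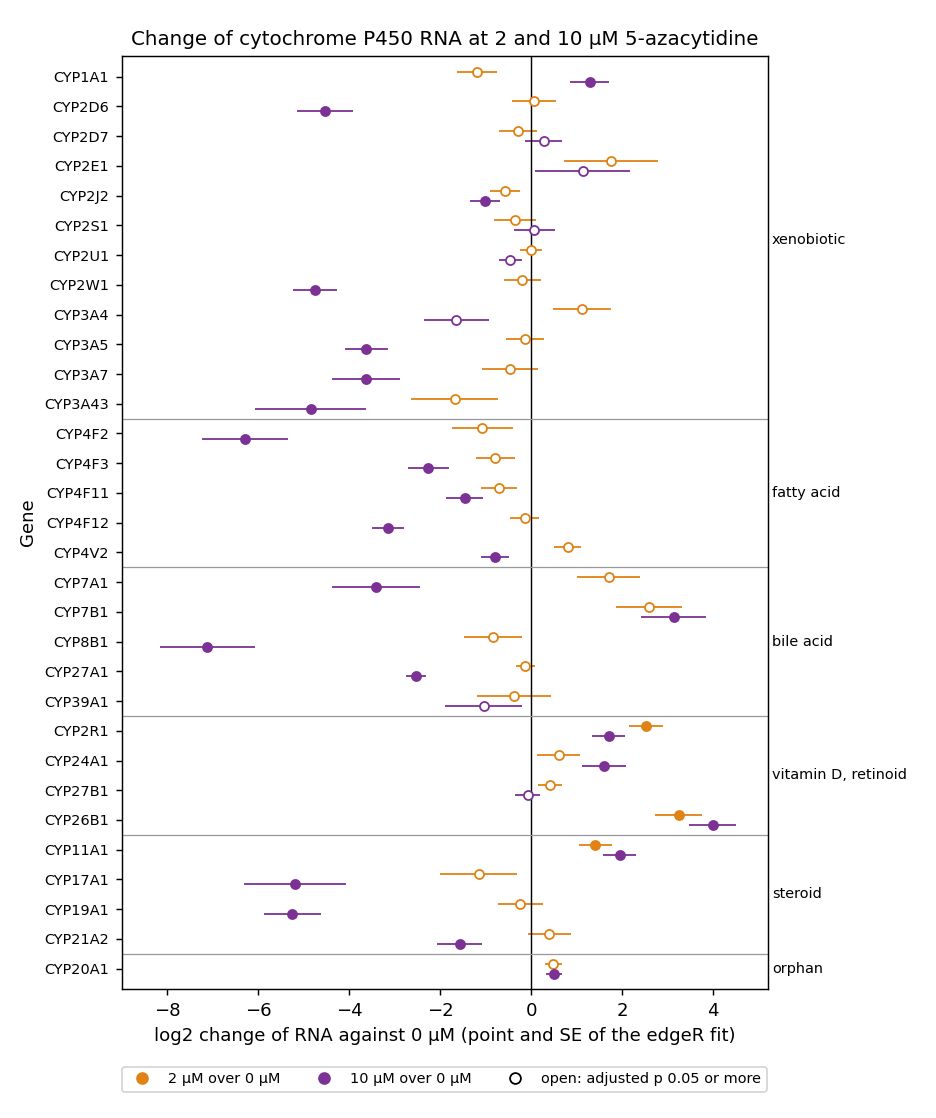
Change of RNA (log2, horizontal axis) for the 31 tested cytochrome P450 genes, by role, at 2 µM (orange) and 10 µM (purple) against 0 µM; points are edgeR estimates, bars their SE, and filled points passed adjusted p under 0.05. At 10 µM, 17 filled points lie left of 0 and 7 right of it. The positions of CYP7A1 and CYP8B1 at 10 µM rest on 2 and 1 counts and depend on the fit's prior count. Those of CYP4F2, CYP17A1 and CYP3A43 at 10 µM rest on 6, 5 and 5 counts.

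Of the 31 tested members, 24 reached the filter level of 0.243 CPM (of total counts) in all 3 libraries at 0 µM. The other 7 were CYP2E1, CYP3A4, CYP7A1, CYP7B1, CYP39A1, CYP26B1 and CYP17A1. Of these, CYP26B1 reached it in every library at 2 and 10 µM, CYP3A4 and CYP7A1 at 2 µM alone, and CYP7B1 at 10 µM alone. CYP2E1, CYP39A1 and CYP17A1 reached it in every library of no dose. Among the 24, CYP3A43 reached it in every library at 0 µM alone. A count over the tested members is thus no support for a change of genes that passed only through doses where they were high. Of the 24 untested members, 10 had no count in any library, among them CYP2A6, which oxidises nicotine. The highest level of an untested member in any library was 0.383 CPM, for CYP1B1, an enzyme of estrogen and pollutant metabolism. CYP1B1 had 4 counts over the libraries at 0 µM, then 5 at 2 µM and 28 at 10 µM. CYP1A2, a major drug-metabolising enzyme of adult liver, was near absent, with 10, 1 and 1 counts at 0, 2 and 10 µM.

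In replicate 3 the members ran high at the lower doses. It was the highest of 3 libraries in 24 of 31 members at 0 µM (77.4%, against 42.5% of all genes tested), in 22 of 31 at 2 µM (71.0%, against 35.9%) and in 8 of 31 at 10 µM (25.8%, against 29.5%). Without replicate 3 of 0 and 2 µM, 6 members rose and 16 fell at 10 µM against 0 µM. The plot by library shows replicate 3 redder than its neighbours at 0 and 2 µM.

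**Figure D2:**
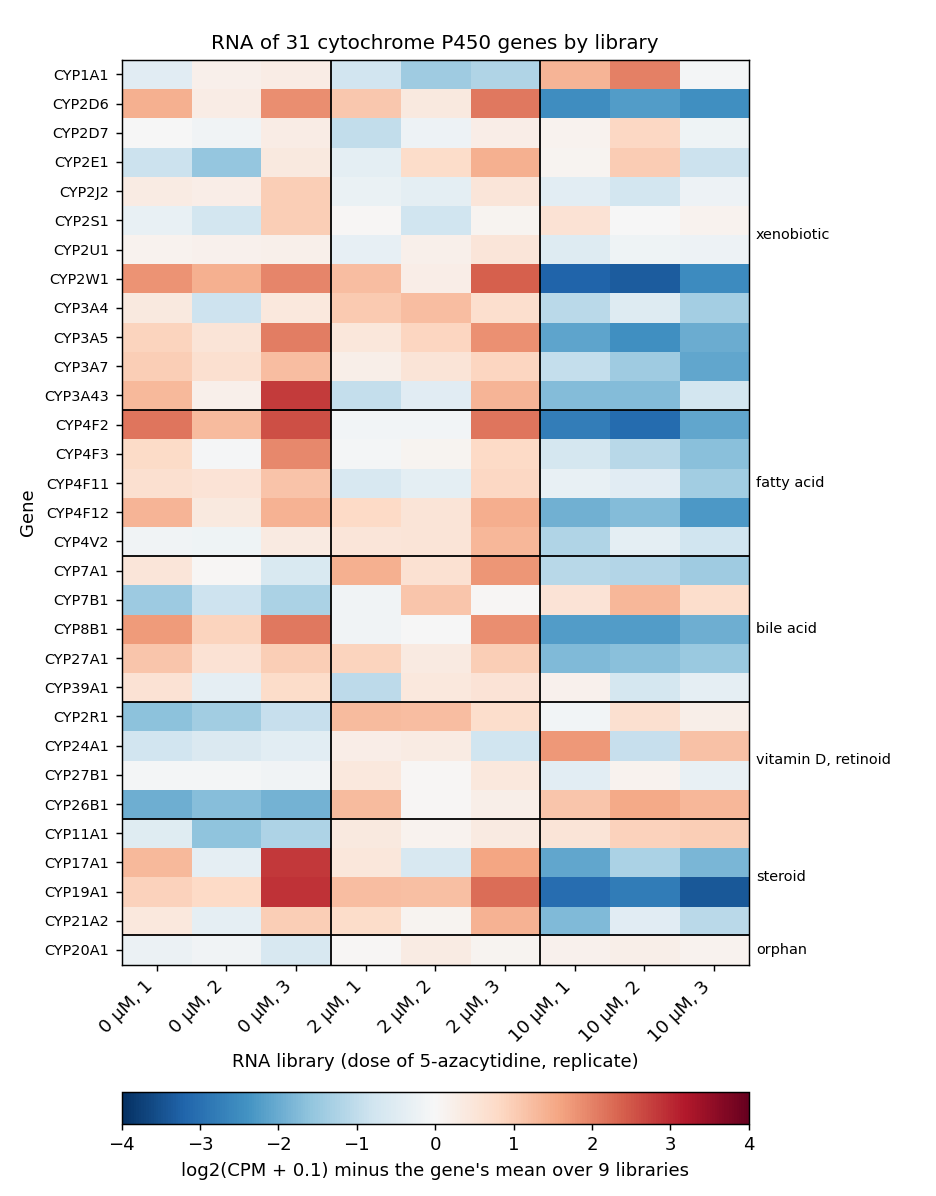
RNA of the 31 tested cytochrome P450 genes (rows, grouped by role) in 9 libraries (columns, by dose and replicate); colour is log2(CPM + 0.1) minus the gene's mean over the libraries. Most rows are blue at 10 µM, with CYP26B1, CYP11A1, CYP7B1 and CYP2R1 lowest at 0 µM.

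Counts by role carry no test of their own and stand against 25.1% of all genes tested that fell at 10 µM and 23.0% that rose. They are out of all members of a role, untested ones included, so their shares run lower than shares of tested members would. Among families 1 to 3, which clear drugs and other foreign compounds, 6 of 23 members fell at 10 µM against 0 µM, 1 rose, 5 had no call and 11 were not tested. CYP2W1, an enzyme found in fetal gut and in colorectal tumours, had 2.61, 2.40 and 4.29 CPM at 10 µM, against 86.7, 67.5 and 96.8 CPM at 0 µM. The groups lay far apart. CYP2W1 fell by 4.75 on the log2 scale (SE 0.48, edgeR adjusted p = 5.87e-06), while at 2 µM its 59.6, 30.1 and 130 CPM straddled the control libraries (log2 change -0.19, SE 0.40). CYP2D6, which clears many antidepressants and opioids, had 0.0957, 0.135 and 0.101 CPM at 10 µM, against 2.81, 1.23 and 3.84 CPM at 0 µM. All of its 10 µM libraries were under all of its controls, and it fell by 4.53 (SE 0.61, edgeR adjusted p = 6.46e-05). Its transcribed pseudogene neighbour CYP2D7 had 1.67, 2.79 and 1.33 CPM at 10 µM and 1.5, 1.39 and 1.89 CPM at 0 µM, with no call (log2 change 0.28, SE 0.41). How reads were split between these near-identical copies is not known, so both values are uncertain.

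The CYP3A cluster on chromosome 7 moved down at 10 µM in 3 of its 4 tested genes. CYP3A5, the form present in some adult livers, had 0.861, 0.673 and 0.950 CPM at 10 µM, against 7.63, 5.89 and 17 CPM at 0 µM. It fell by 3.62 on the log2 scale (SE 0.48, edgeR adjusted p = 5.08e-05). CYP3A7, the fetal liver form, had 0.120, 0.0577 and 0 CPM at 10 µM, against 0.750, 0.566 and 0.896 CPM at 0 µM, and fell by 3.62 (SE 0.75). CYP3A43, a minor form, had 0, 0 and 0.101 CPM at 10 µM, against 0.719, 0.283 and 2.23 CPM at 0 µM, and fell by 4.85 (SE 1.22), a size that ran from -8.46 to -3.75 over the alternatives, its 10 µM counts being those of 1 library. All 10 µM libraries of these 3 genes were under all of their controls. CYP3A43 passed the filter through 0 µM, the dose where it was highest. CYP3A4, the main drug-metabolising P450 of adult liver, stood at 0.375, 0.103 and 0.384 CPM at 0 µM, then 0.653, 0.752 and 0.469 at 2 µM, and 0.0718, 0.154 and 0.0404 CPM at 10 µM. Its 10 µM libraries were all under its 2 µM libraries but overlapped the controls. CYP3A4 reached the filter level in every library at 2 µM alone, so it was tested through the dose where it was high. CYP3A4 fell between 10 and 2 µM by 2.76 (SE 0.69, edgeR adjusted p = 0.00711), and its change against 0 µM was -1.64 (SE 0.71, edgeR adjusted p = 0.0727), called only without replicate 2 at 0 µM (-2.06, edgeR adjusted p = 0.0345). These copies are alike in sequence and may share reads. CYP3A5 and CYP3A7 also overlap ZSCAN25, which rose at 10 µM (log2 change 0.80), opposite to both.

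CYP1A1, which oxidises polycyclic aromatic hydrocarbons and is a textbook target of the aryl hydrocarbon receptor AHR, was the only member that rose at 10 µM against 2 µM. It had 4.13, 6.48 and 6.99 CPM at 0 µM, then 3.29, 2.06 and 2.41 at 2 µM, and 14.7, 23.1 and 5.32 CPM at 10 µM. All 10 µM libraries were above all 2 µM libraries, whereas replicate 3 at 10 µM lay within the control range. CYP1A1 rose by 2.47 on the log2 scale against 2 µM (SE 0.45, edgeR adjusted p = 0.000933) and by 1.29 against 0 µM (SE 0.43, edgeR adjusted p = 0.0243). The call against 0 µM was lost without replicate 1 at 0 µM (log2 change 1.09, edgeR adjusted p = 0.0866) or without replicate 2 at 10 µM (0.79, edgeR adjusted p = 0.153). AHR had no call, at 36.1 ± 1.73 CPM at 10 µM and 54.7 ± 22.8 CPM at 0 µM (SD, n = 3 each).

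CYP2J2, which epoxidises arachidonic acid, had 3.25, 2.58 and 3.76 CPM at 10 µM, against 5.5, 5.25 and 8.70 CPM at 0 µM. The groups did not overlap, and CYP2J2 fell by 1.02 (SE 0.33, edgeR adjusted p = 0.0205), a call lost with scaling to total counts (edgeR adjusted p = 0.0686) and without replicate 3 at 0 µM, replicate 1 at 10 µM or replicate 2 at 10 µM. CYP2U1, a fatty acid hydroxylase, and CYP2S1 had no call at any pair of doses. CYP2U1 lay between 5.79 and 7.28 CPM at 10 µM and between 9.03 and 9.42 CPM at 0 µM, groups that did not overlap (log2 change -0.45, SE 0.25). CYP2S1 lay between 1.98 and 3.04 CPM at 10 µM and between 1.16 and 4.07 CPM at 0 µM. CYP2E1, which oxidises ethanol, stayed at or under 0.682 CPM in every library, with no call.

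In family 4, whose members hydroxylate fatty acids and related lipids, 5 of 12 genes fell at 10 µM against 0 µM and 7 were not tested. CYP4F2, which also degrades vitamin K, had 0.0239, 0 and 0.101 CPM at 10 µM, against 3.63, 1.90 and 4.96 CPM at 0 µM. It fell by 6.29 on the log2 scale (SE 0.94, edgeR adjusted p = 0.000145). Its 10 µM level rests on 6 counts in all, and the size ran from -7.97 to -5.66 over the alternatives. CYP4F12 averaged 1.80 ± 0.363 CPM at 10 µM, against 15.9 ± 5.58 CPM at 0 µM (SD, n = 3 each), where its libraries had 19.0, 9.49 and 19.3 CPM. It fell by 3.14 (SE 0.35, edgeR adjusted p = 1.48e-05), and its groups lay well apart. CYP4F3, which inactivates leukotriene B4, had 6.58, 4.92 and 3.32 CPM at 10 µM, against 18.6, 10.6 and 41.5 CPM at 0 µM, and fell by 2.26 (SE 0.45). CYP4F11, a hydroxylase of long-chain fatty acids, had 6.63, 5.98 and 3.01 CPM at 10 µM, against 12.6, 12 and 18.1 CPM at 0 µM, and fell by 1.46 (SE 0.40). Neither gene's groups overlapped. CYP4V2, whose loss causes Bietti crystalline dystrophy of the retina, had 8.81, 8.67 and 12.4 CPM at 0 µM, then 13.8, 13.9 and 24.6 at 2 µM, and 4.16, 7.48 and 5.60 CPM at 10 µM. Its libraries were in separate ranges at each dose, highest at 2 µM. Between 2 and 0 µM it had no call (log2 change 0.81, edgeR adjusted p = 0.167). CYP4V2 fell between 10 and 2 µM by 1.60 (SE 0.31, edgeR adjusted p = 0.00136), and its fall of 0.79 against 0 µM (SE 0.30, edgeR adjusted p = 0.0449) was lost in 6 of 16 alternatives. The CYP4F genes lie in 1 cluster on chromosome 19 and are alike in sequence, so reads may be shared among them.

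At 2 µM the CYP4F genes showed no call with all libraries. Without replicate 3 of 0 and 2 µM, CYP4F2 and CYP4F11 fell at 2 µM against 0 µM, with log2 changes of -2.02 (edgeR adjusted p = 0.0422) and -1.11 (edgeR adjusted p = 0.0459). Leaving out replicate 3 at 2 µM alone gave the same pair, at -2.33 and -1.29. Calls over all genes grew in these settings too. With all libraries 202 of 18999 genes fell at 2 µM, against 788 of 19257 without both replicates 3. Without replicate 3 at 2 µM alone, 432 of 19672 fell. Against 2 µM, the fall of CYP4F3 at 10 µM (1.47, SE 0.44) was lost without replicate 3 at 2 µM, replicate 2 at 10 µM or replicate 3 at 10 µM (edgeR adjusted p from 0.0541 to 0.0693).

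Bile acid and oxysterol enzymes split at 10 µM, with 3 of 6 lower, 1 higher, 1 without a call and 1 not tested. CYP27A1, the mitochondrial sterol hydroxylase that starts the alternative route to bile acids, had 291, 203 and 270 CPM at 0 µM, then 254, 175 and 270 at 2 µM, and 40.4, 42.7 and 49.1 CPM at 10 µM. The 10 µM libraries lay in a range of their own. CYP27A1 fell by 2.53 (SE 0.22, edgeR adjusted p = 2.20e-06). CYP8B1, the hydroxylase that makes cholic acid, had 1 count over 3 libraries at 10 µM, against 151 at 0 µM. That is 197-fold lower per counted read, with a 95% counting interval of 34.8 to 7824 that covers counting error only, and edgeR called it (adjusted p = 0.000119). CYP7A1, the rate-limiting enzyme of the classical route, was low throughout, with 19 counts at 0 µM, 76 at 2 µM and 2 at 10 µM. It reached the filter level in every library at 2 µM alone, so it was tested through the dose where it was high. CYP7A1 was 12.4-fold lower at 10 µM than at 0 µM (95% counting interval 2.99 to 110) and 42.5-fold lower than at 2 µM (11.4 to 358), and both were called (edgeR adjusted p = 0.0110 and 0.000812).

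CYP7B1, which hydroxylates oxysterols, went the other way. It had 0.0313, 0.103 and 0.0512 CPM at 0 µM, then 0.226, 0.679 and 0.277 at 2 µM, and 0.431, 0.807 and 0.485 CPM at 10 µM. Every treated library was above every control. The gene reached the filter level in every library at 10 µM alone, so it was tested through a dose where it was high. CYP7B1 rose by 3.13 at 10 µM (SE 0.72, edgeR adjusted p = 0.00294); its 2 µM change of 2.59 (SE 0.73) missed the threshold (edgeR adjusted p = 0.0666) and passed it with total counts, with DESeq2 and without a filter on low counts. CYP39A1, another oxysterol hydroxylase, stayed at or under 0.333 CPM with no call.

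Vitamin D and retinoid enzymes held 3 of the 7 rises at 10 µM and 2 of the 3 at 2 µM. None of the 4 tested members fell, and 3 were not tested. CYP26B1, which degrades retinoic acid, had 0.0938, 0.129 and 0.102 CPM at 0 µM, then 1.71, 0.679 and 0.789 at 2 µM, and 1.53, 2.06 and 1.76 CPM at 10 µM. Every treated library exceeded every control. The gene passed the filter through the treated doses, where it was high. CYP26B1 rose by 4.00 at 10 µM (SE 0.52, edgeR adjusted p = 4.60e-05) and by 3.24 at 2 µM (SE 0.52, edgeR adjusted p = 0.00409). CYP2R1, the main vitamin D hydroxylase of liver, had 0.5, 0.617 and 0.896 CPM at 0 µM, then 4.47, 4.32 and 2.94 at 2 µM, and 1.65, 2.84 and 2.14 CPM at 10 µM. The 2 µM libraries were the highest and did not overlap either other dose. Between 10 and 2 µM CYP2R1 had no call (log2 change -0.82, SE 0.34, edgeR adjusted p = 0.0741). In 55.7% of all genes tested these 2 doses did not overlap. CYP2R1 rose by 1.71 at 10 µM (SE 0.36, edgeR adjusted p = 0.00181) and by 2.53 at 2 µM (SE 0.37, edgeR adjusted p = 0.00263). Its gene overlaps PDE3B, which fell at 10 µM (log2 change -1.10), opposite to CYP2R1.

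CYP24A1, which breaks down active vitamin D, was uneven at 10 µM. It had 34.1, 38.5 and 42.9 CPM at 0 µM, then 69.8, 72.8 and 33.6 at 2 µM, and 192, 30.3 and 131 CPM at 10 µM. Replicate 2 at 10 µM was under all controls, while the other two were above them. CYP24A1 rose by 1.61 (SE 0.49, edgeR adjusted p = 0.0148), a call lost without replicate 1 at 10 µM (log2 change 1.09, edgeR adjusted p = 0.0829). The vitamin D receptor VDR had no call at 0.701 CPM on average at 10 µM and 0.608 CPM at 0 µM. CYP27B1, which makes active vitamin D, had no call, at 3.13, 4.71 and 3.48 CPM at 10 µM and 4.03, 4.04 and 3.86 CPM at 0 µM.

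**Figure D3:**
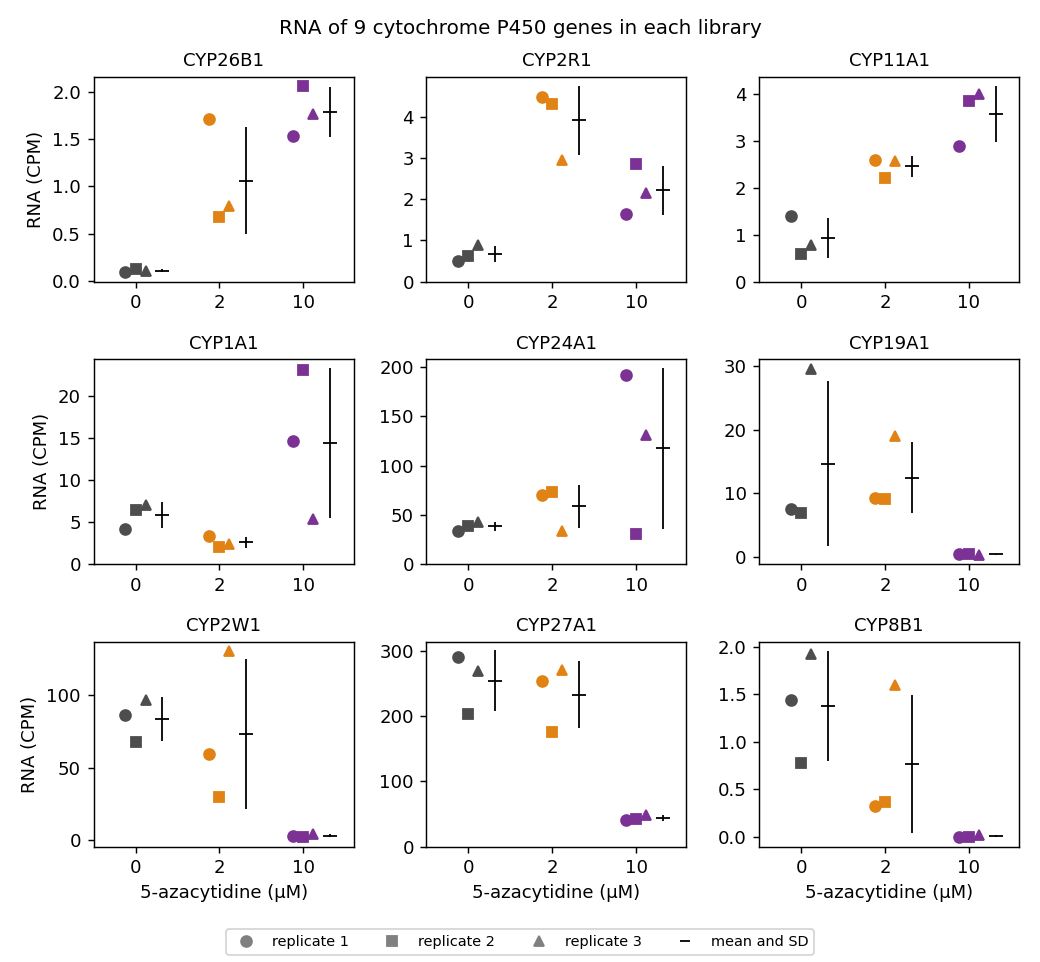
RNA (CPM, linear axis from 0) of 9 cytochrome P450 genes by dose of 5-azacytidine; each point is 1 library, its shape the replicate, with mean and SD of 3 libraries beside it. CYP26B1 and CYP11A1 lie above the controls at both doses, and CYP2R1 is highest at 2 µM, with no call between 10 and 2 µM. CYP24A1 spreads from 30.3 to 192 CPM at 10 µM, and the lower row is near the axis or far below the controls at 10 µM.

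Steroid hormone enzymes moved in both directions at 10 µM, with 3 of 6 lower, 1 higher and 2 not tested. CYP19A1, the aromatase that turns androgens into estrogens, had 7.50, 6.82 and 29.6 CPM at 0 µM, then 9.29, 9.07 and 19.0 at 2 µM, and 0.383, 0.480 and 0.283 CPM at 10 µM. The 10 µM libraries were far under the rest, and replicate 3 was the highest at 0 and 2 µM. CYP19A1 fell by 5.25 against 0 µM (SE 0.62, edgeR adjusted p = 2.22e-05). It shares its locus with the host transcript MIR4713HG, which rose at 10 µM (log2 change 1.44). CYP17A1, which commits steroids to androgens and cortisol, had 0, 0.0769 and 0.0202 CPM at 10 µM, against 0.938, 0.231 and 2.89 CPM at 0 µM, and fell by 5.19 (SE 1.12, edgeR adjusted p = 0.00204). The 10 µM level of CYP17A1 rests on 5 counts in all, so the size of its fall is uncertain. Against 2 µM its fall of 4.04 was lost without replicate 3 at 2 µM (edgeR adjusted p = 0.0574).

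CYP21A2, the steroid hydroxylase needed for cortisol and aldosterone, had 2.09, 1.16 and 3.15 CPM at 0 µM, then 2.59, 1.67 and 4.18 at 2 µM, and 0.383, 1.10 and 0.667 CPM at 10 µM. The groups at 10 and 0 µM were close but did not overlap. CYP21A2 fell by 1.56 (SE 0.50, edgeR adjusted p = 0.0193), a call lost without replicate 3 at 0 µM or without replicates 1 or 3 at 10 µM; it has a near-identical pseudogene and overlaps TNXB, so its counts are uncertain. CYP11A1, which cuts the cholesterol side chain in the first step of steroid synthesis, had 1.41, 0.592 and 0.793 CPM at 0 µM, then 2.61, 2.21 and 2.58 at 2 µM, and 2.89, 3.86 and 4.00 CPM at 10 µM. The 3 doses did not overlap, with no call between 10 and 2 µM (log2 change 0.54, edgeR adjusted p = 0.232). CYP11A1 rose by 1.95 at 10 µM (SE 0.36, edgeR adjusted p = 0.000709) and by 1.41 at 2 µM (SE 0.36, edgeR adjusted p = 0.0447), the smaller of these being lost in 11 of 17 alternatives, among them the replicate block on 0 and 2 µM alone (edgeR adjusted p = 0.0671). The orphan CYP20A1, with no settled substrate, had 92.3, 96.6 and 90.1 CPM at 10 µM, against 70.4, 74.1 and 52.1 CPM at 0 µM, and rose by 0.51 (SE 0.18, edgeR adjusted p = 0.0334), a call lost in 7 of 16 alternatives.

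The 104 peaks were annotated to 34 members, 21 members having none, and 33 peaks on 23 genes were called promoter peaks by the authors, within 1000 bp of an annotated transcript start. At 10 µM against 0 µM, 56 of the 104 peaks fell and 17 rose, against 27.6% and 29.9% of all peaks tested. The median log2 change was -0.49 over the members' peaks and 0.05 over all. Of the 33 promoter peaks 19 fell and 4 rose, against 14.9% and 20.5% of all 19763 promoter peaks. At 2 µM against 0 µM, 14 peaks rose and 5 fell, against 15.5% and 7.30% of all. Between 10 and 2 µM, 15 rose and 50 fell, against 27.5% and 27.6% of all. The 2 µM counts moved with the settings, to 7 rises with DESeq2 and to 15 falls with either 10 µM library left out. Over all peaks, rises went from 9044 to 5825 with DESeq2. Falls over all peaks went from 4260 to 7051 without replicate 1 at 10 µM and to 7029 without replicate 2.

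Promoter peaks and RNA were set side by side for each gene. Of the 17 genes whose RNA fell at 10 µM, 12 had a promoter peak. Only falls were called in 8 of these, both a rise and a fall in 2, and nothing in 2, CYP2J2 and CYP4V2. Among the 8, CYP17A1 rests on a peak centred 5482 bp downstream of the nearest RefSeq start. The same count over all genes whose RNA fell was not made, so the 8 of 12 describes these genes alone. Of the 7 genes whose RNA rose, 4 had a promoter peak, and a rise was called in CYP24A1 alone, at a peak whose call was lost in 10 of 14 alternatives, DESeq2 (adjusted p = 0.187) and the replicate block (edgeR adjusted p = 0.0941) among them. The promoter peaks of CYP1A1, CYP2R1 and CYP20A1 had no call at 10 µM, with log2 changes of -0.07 (SE 0.16), 0.01 (SE 0.16) and 0.21 (SE 0.15). The CYP1A1 peak had 21.6 and 21.3 CPM at 10 µM, against 21.6, 23.7 and 22.0 CPM at 0 µM, while its RNA was called higher. The peak of CYP2R1 was as flat at 2 µM (log2 change -0.01, SE 0.14), where its RNA was highest, without a call between 10 and 2 µM. The CYP20A1 peak fell at 2 µM by 0.41 (SE 0.14, edgeR adjusted p = 0.0304), a call lost in 4 alternatives.

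**Figure D4:**
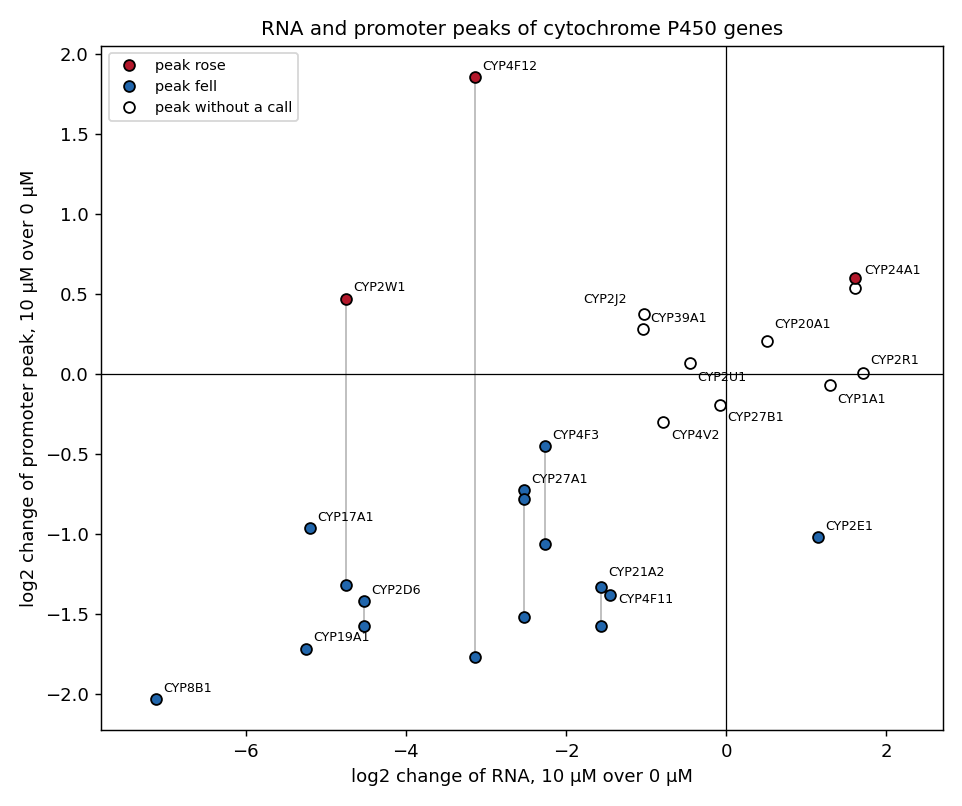
Log2 change at 10 µM against 0 µM of RNA (horizontal axis) and of each promoter peak (vertical axis) for the 20 tested cytochrome P450 genes with a promoter peak, 28 peaks in all; lines join peaks of 1 gene, and fill marks the peak's call. Falling peaks (blue) lie left of 0 except that of CYP2E1; CYP2W1 and CYP4F12 each have 1 rising and 1 falling peak, and the place of CYP8B1 on the horizontal axis depends on the fit's prior count.

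Among the promoter peaks, that of CYP8B1 (chr3:42875614-42876114) changed by -2.03 at 10 µM on the log2 scale, the lowest value (SE 0.32, edgeR adjusted p = 1.21e-06). It had 1.61 and 3.48 CPM at 10 µM, against 9.94, 9.65 and 9.66 CPM at 0 µM. At the CYP19A1 start whose upstream bases are printed above, which hold 1 CG pair, the peak (chr15:51318315-51318815) had 4.56 and 4.57 CPM at 10 µM, against 12.1, 17.5 and 14.8 CPM at 0 µM, and fell by 1.72 (SE 0.26). The peak on the CG-rich CYP27A1 start (chr2:218781878-218782378) had 28.7 and 27.6 CPM at 10 µM, against 51.4, 47.0 and 47.7 CPM at 0 µM, and fell by 0.78 (SE 0.15). Another of its promoter peaks fell by 0.73, and a peak that the authors also called promoter, 23618 bp downstream of the nearest RefSeq start, fell by 1.52. Both CYP2D6 promoter peaks fell, the one upstream of the start by 1.58, though how reads were split with CYP2D7 is not known. The promoter peak of CYP4F11 fell by 1.39. Those of CYP4F3 fell by 0.45, a call lost in 3 of 14 alternatives including DESeq2 (adjusted p = 0.0609), and by 1.07, with a log2 change of -0.66 without replicate 1 at 10 µM. CYP4F12 had a peak that fell by 1.77 (chr19:15673230-15673730) and another further along the chromosome that rose by 1.86 (chr19:15681302-15681802). The promoter peaks given for CYP17A1 and CYP2E1 fell by 0.97 and 1.02 but lie 5482 bp downstream and 6989 bp upstream of the nearest RefSeq start.

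At CYP21A2, accessibility of the promoter rose at 2 µM and fell at 10 µM. The peak (chr6:32038186-32038686), on the printed start, had 6.55, 3.53 and 5.68 CPM at 0 µM, then 19.9, 14.8 and 12.8 at 2 µM, and 1.21 and 2.39 CPM at 10 µM. No library of 1 dose overlapped another dose. The peak rose by 1.60 at 2 µM (SE 0.25, edgeR adjusted p = 1.83e-05) and fell by 1.58 at 10 µM (SE 0.39, edgeR adjusted p = 0.000801), the 10 µM call being lost without replicate 1 at 10 µM (edgeR adjusted p = 0.0509). A second promoter peak fell by 1.33 at 10 µM. How peak reads were split between CYP21A2 and its near-identical pseudogene is not known. RNA of CYP21A2 had no call at 2 µM, with a log2 change of 0.40 (SE 0.47).

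CYP2W1 had 13 peaks annotated to it, the most of any member, and 4 of them rose at 2 µM and fell at 10 µM. The peaks from chr7:990920 onward lie past the end of the gene at chr7:989640. The gene overlaps CHLSN, which had no matched symbol in the count table, so reads may be shared. At 2 µM 6 of the 13 rose and none fell, and at 10 µM 10 fell, 2 rose and 1 had no call. Over all peaks 15.5% rose and 7.30% fell at 2 µM, and 29.9% rose and 27.6% fell at 10 µM. The 13 peaks lie at 1 locus and were not tested as a set. The peak on its start (chr7:982736-983236) had 32, 31.3 and 31.6 CPM at 0 µM, then 30.6, 27.5 and 31.2 at 2 µM, and 11.1 and 14.6 CPM at 10 µM, and fell at 10 µM by 1.32 (SE 0.17). The peak centred 2827 bp upstream rose at 2 µM by 1.66 (SE 0.28) and at 10 µM by 0.88 (SE 0.32), the 10 µM call being lost in 4 of 14 alternatives, among them without replicate 2 at 10 µM (log2 change 0.40, edgeR adjusted p = 0.377). The second promoter peak, centred 3126 bp downstream, rose at 10 µM by 0.47, a call lost in 6 alternatives (log2 change 0.06 without replicate 2 at 10 µM), and at 2 µM by 0.68, lost without replicate 2 at 0 µM. Of the members, only CYP2W1 and CYP21A2 held peaks that rose at 2 µM and fell at 10 µM, 6 in all. How many of all 58372 peaks took this course was not counted, so the 6 cannot be called many or few. Each of the 6 lost at least 1 of its calls under some alternative: the rise at 2 µM in 3 of them and the fall at 10 µM in 4. Of the 14 peaks that rose at 2 µM, 7 also rose at 10 µM.

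**Figure D5:**
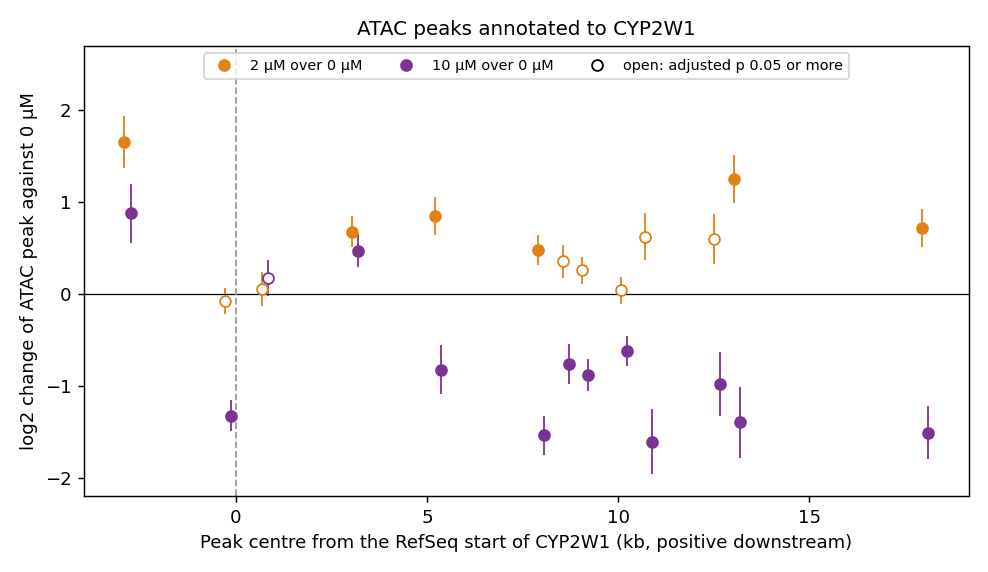
Log2 change against 0 µM of the 13 ATAC peaks annotated to CYP2W1 (points with SE; orange 2 µM, purple 10 µM; filled, adjusted p under 0.05), by distance of the peak centre from the RefSeq start in kb. The upstream peak is above 0 at both doses, and 10 of the peaks are called below 0 at 10 µM while none is at 2 µM. Over all peaks 27.6% fell at 10 µM and 7.30% at 2 µM.

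The widest peak changes at 10 µM lay away from promoters. A peak centred 7049 bp upstream of CYP3A4 (chr7:99790983-99791483) had 14.4 and 11.3 CPM at 10 µM, against 0.485, 1.09 and 1.33 CPM at 0 µM, and rose by 3.65 (SE 0.33), while CYP3A4 RNA had no call. A peak nearest CYP11B2, the aldosterone synthase, whose RNA had no count, rose by 3.63 (SE 0.31), and another nearest that gene rose by 1.91. CYP26B1 had no promoter peak, and its 7 peaks moved apart: the peak centred 32269 bp downstream of the start (chr2:72115343-72115843) had 50.8 and 35.9 CPM at 10 µM, against 7.28, 4.35 and 7.39 CPM at 0 µM, and rose by 2.84 (SE 0.20). The peak centred 69777 bp downstream (chr2:72077835-72078335) had 1.34 and 6.09 CPM at 10 µM, against 29.1, 23.8 and 29.7 CPM at 0 µM, and fell by 3.06 (SE 0.29). A distal CYP24A1 peak (chr20:54134354-54134854) rose by 2.63 (SE 0.22), and its promoter peak at chr20:54173788-54174288, with 26.7 and 9.35 CPM at 10 µM, against 13.1, 12.2 and 12.3 CPM at 0 µM, rose by 0.60 with all libraries. Its 10 µM libraries lay on either side of the controls, and without replicate 1 at 10 µM the change turned to -0.43 (edgeR adjusted p = 0.204). The other largest falls were at peaks nearest CYP27C1 (-2.60), CYP3A43 (-2.52), CYP26C1 (-2.41) and CYP2S1 (-2.22), and nearest-gene annotation does not show that a peak acts on that gene.

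By CG content, members whose RNA rose at 10 µM had a median of 10 CG pairs per promoter window (5 of 7 genes with a window, 5 to 31), those that fell had 3 (13 of 17, 1 to 36), those without a call had 23 (5 of 7) and untested members had 2 (15 of 24). Of the 13 genes that fell, 9 had under 10 CG pairs. The ranges overlap widely, and no test was made. The core GCGTG of the AHR binding motif, or CACGC on the other strand, was in 23.5% of the members' windows (12 of 51) and in 36.5% of all RefSeq windows. The printed stretch held it at 2 places for CYP2W1, whose RNA fell, and at 1 for CYP1A1, whose RNA rose. The letters TATAA on the gene's strand, between 45 and 16 bases before the start, were in 35.3% of the members' windows (18 of 51), against 4.1% of all windows.

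For genes that work with the family the counts are likewise a description without a test, against 25.1% of all genes tested that fell at 10 µM and 23.0% that rose. This holds for each list below, and each is counted over all its genes, untested ones included. Of 9 electron donors 6 fell and none rose, among them POR, the reductase that feeds all microsomal P450 enzymes, at 321 ± 51.6 CPM at 10 µM and 538 ± 189 CPM at 0 µM (SD, n = 3 each; log2 change -0.74, edgeR adjusted p = 0.0473). The groups of POR overlapped, with 374, 271 and 319 CPM at 10 µM and 528, 354 and 731 CPM at 0 µM. CYB5A, a cytochrome b5 that assists CYP17A1 and other P450 enzymes, fell by 3.49 and FDXR, the reductase of mitochondrial P450 enzymes, by 2.11. CYB5B, CYB5R3 and PGRMC2 fell, with log2 changes from -1.51 to -1.36. Of 12 heme genes 6 fell, among them ALAD, CPOX, PPOX, BLVRA and BLVRB, and 2 rose: ALAS1, the first enzyme of heme synthesis in liver, by 0.66, with 112, 104 and 114 CPM at 10 µM against 66.8, 67.0 and 74.6 CPM at 0 µM, and HMOX1, which degrades heme, by 0.83. CPOX alone of the heme genes was called at 2 µM, where it fell by 0.83.

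Of 25 transcription factors of P450 genes, 14 fell at 10 µM, 1 rose, 8 had no call and 2 were not tested. NR1H4, the bile acid receptor FXR, had 0.526, 1.63 and 1.01 CPM at 10 µM, against 99.5, 91.7 and 77.4 CPM at 0 µM, and fell by 6.38 (SE 0.35). HNF4A, a master factor of hepatocytes, fell by 1.83. Also lower were NR0B2, PPARA, FOXA1, ONECUT1, CEBPA, NR1H3, NR5A2, RORA, FOXA3 and RXRA, with log2 changes from -2.41 to -0.84, and CEBPB rose by 0.67. AHR, ARNT, the pregnane receptor NR1I2 and the glucocorticoid receptor NR3C1 had no call. Of 5 AHR targets outside the family TIPARP rose by 0.49, NQO1 fell by 0.93 and 3 were not tested.

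Of 18 other phase I enzymes 10 fell at 10 µM and 7 were not tested; AOX1, an aldehyde oxidase, alone rose. AOX1 had 75.6, 72.5 and 95.5 CPM at 0 µM, then 216, 229 and 169 at 2 µM, and 218, 217 and 214 CPM at 10 µM, and rose at both doses, by 1.33 on the log2 scale at 2 µM (edgeR adjusted p = 0.00202) and with an edgeR adjusted p of 4.88e-05 at 10 µM. Those that fell were FMO5, ADH6, ADH4, CES1, EPHX2, MAOA, CES2, EPHX1, MAOB and CES3, with log2 changes from -5.73 to -1.11. Of 10 bile acid synthesis genes outside the family 8 fell. The log2 change was -7.58 for AKR1D1, -4.35 for AKR1C4, -4.15 for BAAT, which conjugates bile acids, and from -2.26 to -1.19 for SLC27A5, HSD17B4, HSD3B7, ACOX2 and SCP2. The median log2 change at 10 µM was -2.19 over the tested genes of that list, -1.80 over other phase I enzymes, -1.18 over the transcription factors, -1.37 over the electron donors and -0.58 over the heme genes, against -0.02 over all genes tested.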

How the data were processed

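The deposited RNA table holds raw counts of reads for each gene, made by the authors. The tools named in the submitters' processing notes are DiffBind 3.12.0, DESeq2 1.42.1, HTSeq 2.0.4 and HISAT2 2.2.1, with the build hg38 and no role or order; the peak caller and the strand setting of the counting are not given in the sources used here. Per the labels, RNA libraries were made with a TruSeq Stranded Total RNA Gold kit and ATAC libraries with Nextera reagents. ATAC values are raw read counts per 501 bp consensus peak, with the authors' nearest-gene annotation. The authors also deposited normalized counts (a signal per gene), which were compared with the raw counts only. The columns of replicates 2 and 3 at 10 µM hold each other's values there, and the raw counts were used with their own labels. Which labels are right is not known. RNA results that name replicate 2 or 3 at 10 µM, and the replicate block over all doses, depend on them.

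Identifiers matched symbols without their version (62666 of 63187). Each assay had 1 edgeR 4.0.16 quasi-likelihood fit (R 4.3.3, two-sided) over all doses, with TMM scaling, filterByExpr, prior count 0.125 and Benjamini-Hochberg adjustment over all features within a comparison (18999 genes, 58372 peaks). The SE is the absolute log2 change divided by the root of F. CPM used TMM library sizes. The script was tested on simulated data. Alternatives were DESeq2 1.42.0, other scalings, no filter, fits of the doses compared, a replicate block, promoter peaks only and leaving out each library. Same-numbered RNA libraries at 0 and 2 µM deviated together (correlations over genes 0.325 to 0.388 in all 3 pairs), so the numbers were taken to pair these. Other groups did not meet this. The main fit held no replicate block, which was run as an alternative only. Every replicated dose had distinct columns. Members called in any RNA comparison were named with values, members with 1 CPM or more at any dose by level, and the rest by count; peaks named were called promoter peaks of those members and the 5 highest and 5 lowest changes called at 10 µM. A few listed genes are counted but not reported by name here. The members, roles and pathway lists were chosen with earlier results of these data known.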

Additional observations from a re-analysis of the deposited data

How the results depend on the processing

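At 10 µM against 0 µM no alternative ended 18 of the 24 RNA calls or 48 of the 73 peak calls; against 2 µM these were 14 of 16 and 45 of 65, and at 2 µM against 0 µM 2 of 3 and 6 of 19. The replicate block over all doses gave 3 rises and 0 falls of RNA at 2 µM, 7 and 17 at 10 µM and 1 and 16 between them, and for peaks 10 and 4, 15 and 53, and 15 and 51; the block on 0 and 2 µM alone, chosen after seeing the data, gave 2 rises, without CYP11A1, and 0 falls.

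RNA falls at 2 µM, 0 with all libraries, were 1 with no filter on low counts, 2 without both replicates 3, and 0 to 2 with a library left out. Over all genes these falls were 202 of 18999 with all libraries. They were 673 of 34824 with no filter and 788 of 19257 without both replicates 3. RNA rises between 10 and 2 µM were 2 with no filter and 1 to 2 with a library left out. Peak rises at 2 µM were 7 with DESeq2, and peak falls at 2 µM were 15 with only the doses compared. Over all peaks, rises at 2 µM went from 9044 to 5825 with DESeq2. Falls over all peaks went from 4260 of 58372 tested to 6919 of 57431 with only the doses compared. With a library left out, peaks at 2 µM ranged from 6 to 14 rises and from 3 to 15 falls, and peak rises at 10 µM against 0 µM from 11 to 17. Named by library, the 2 µM rises were 6 without replicate 2 at 0 µM and 8 without replicate 2 at 2 µM. Over all peaks these rises were 5324 and 6590. The 2 µM falls were 15 without either 10 µM library. They were 9 without replicate 1 at 0 µM and 3 without replicate 2 at 2 µM. Over all peaks these falls were 7051 or 7029 (without replicate 1 or 2 at 10 µM), 4616 and 2569. The 10 µM rises were 11 without replicate 1 at 0 µM. Over all peaks these were 15585, against 17436 with all libraries. Counting promoter peaks only gave 2 rises and 1 fall at 2 µM, 4 and 19 at 10 µM, and 4 and 17 between them, from the smaller set by construction. Without replicate 1 at 10 µM the CYP24A1 peak at chr20:54173788-54174288 turned to -0.43 against 0 µM and -0.72 against 2 µM; without replicate 2 at 10 µM these were 1.01 and 0.72. Apart from fewer peaks or libraries, the cause of each shift was not tested. With 3 RNA and 2 or 3 ATAC libraries a dose, and under 0.5 CPM for several members, small changes of low genes were not detectable at this depth.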
